A study of Mus musculus with 16 samples.

Results

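A set of 49 cell-cycle genes that are targets of the E2F factors and of the DREAM complex was followed through RNA-seq of KPC1199 cells, a mouse pancreatic ductal adenocarcinoma (PDAC) line. The genes were chosen by symbol, with earlier results of these data known, and each symbol had to be present in both count tables. All 49 genes were found among 55738 features in the untreated table and 56980 in the IFNγ table. Of these, 22 act mainly in DNA replication and are called S-phase members here, and 27 act in mitosis and are called G2/M members. No member was lost to the filter on low counts in either experiment.

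The study asked how loss of Sin3b, a scaffold of histone deacetylase complexes, changes the transcriptome of these tumor cells, alone and under IFNγ. The untreated experiment holds 2 libraries of cells with a control guide, called sgCtrL, and 2 libraries of cells with the guide Sin3Bsg1 against Sin3b. The IFNγ experiment holds 3 libraries of each guide without IFNγ and 3 of each guide after 24 h in 10 ng/ml IFNγ, a cytokine made by T cells. The line comes from the KPC mouse, in which Cre under the pancreatic Pdx promoter switches on mutant Trp53 among its alleles, so p53 is altered in every group, controls included. Each group, sgCtrL as well, carries a lentiviral Cas9 vector, Sin3B was targeted with 1 guide in these libraries, and the sources do not state whether a group is a clone or a pool. They also do not state that libraries of a group came from separate cultures, and p-values then measure the spread between these samples, which may be technical.

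E2F1 and its close relatives switch on replication genes at the G1/S boundary once cyclin-dependent kinases have inactivated the retinoblastoma protein. In resting and early G1 cells the DREAM complex, made of p107 or p130, E2F4 or E2F5, DP and the MuvB core, binds E2F sites of S-phase genes and CHR elements of G2/M genes and keeps them silent. In dividing cells MuvB changes partners to B-Myb (Mybl2) and later FoxM1 and activates the G2/M genes. Sin3 proteins bring histone deacetylases to promoters and are known co-repressors of E2F target genes in cells that leave the cycle, which raises the question of whether the 49 genes were derepressed in Sin3Bsg1 cells.

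The targeted gene, Sin3b (ENSMUSG00000031622), was lower in every Sin3Bsg1 library. In CPM, the count scaled to the size of the library with TMM factors, it stood at 88.6 and 83.4 in the untreated sgCtrL libraries and at 36.5 and 34.1 in the Sin3Bsg1 libraries (log2 fold change -1.28 ± 0.049, adjusted p = 1.19e-11; edgeR's quasi-likelihood test, ± gives the SE, and adjusted p is by Benjamini-Hochberg over all genes tested). Without IFNγ the values were 93.2, 95.6 and 88.5 against 39.3, 38.6 and 39.4 (log2 fold change -1.24 ± 0.052, adjusted p = 5.1e-10), and with IFNγ 80.4, 84.3 and 83.9 against 33.6, 37.7 and 35.5 (log2 fold change -1.22 ± 0.052, adjusted p = 5.22e-10). The remaining transcript was read by the count per gene and does not tell how much protein was made. The paper states that its edited lines were checked for knockout by western blot, by sequencing of the target site, or both. The 4 untreated libraries held 29683181 to 32311721 counts, and the 12 others 18128055 to 27056903. Of 8 epithelial markers, Krt8 and Krt18 were the highest, and Cldn4 was at or below 3 counts in 5 of 6 groups. Their summed level, in TPM, a unit that also divides by gene length, was higher in Sin3Bsg1 than in sgCtrL libraries, at 7271 to 7377 against 5472 to 5491 in untreated cells, 4183 to 4284 against 3852 to 3936 without IFNγ, and 5138 to 5327 against 3874 to 4598 with IFNγ. Of 6 leukocyte markers only Cd68 was above 3 counts, and the 8 fibroblast markers summed to 10.5 to 89.7 TPM, most of it Pdgfra, with Lum and Fap at or below 3 counts. Pdgfra moved with the guide and with IFNγ, from a mean of 25.9 to 7.52 TPM with the Sin3b guide in untreated cells, and in the second experiment from 74.7 in sgCtrL to 63.2 in Sin3Bsg1 cells and to 50.02 and 43.2 with IFNγ, and the part of these markers in the results on the 49 genes was not tested.

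The promoters of 7 members are shown for the motifs, often several in a promoter, among the genes that the results turn on. Promoter windows of RefSeq (build GRCm38.p6, 250 bases before to 50 after the start) matched 40 of the 49 members. They were searched on both strands for the E2F letters TTTGGCGC, TTTCGCGC, TTTCCCGC and TTTGGCGG, for CCAAT, the box read by NF-Y, and for the CHR letters TTTGAA and TTCGAA, read by the MuvB core. Each run below gives the 250 bases before the start, 5′ to 3′ on the gene's strand, with every match in capitals. Rfc3, the member that rose most with IFNγ, lies at chr5:151651209-151651458 on the minus strand and has an E2F match near its end, with another at base 1 after the start, outside the run. Its run also holds 1 CCAAT match and 1 CHR match. Mcm5 lies at chr8:75109259-75109508 on the plus strand, and its pair of E2F matches, 1 on each strand, overlap in a single capital run. Cdk1, on chr10:69352913-69353162 (minus strand), is the G2/M member with an E2F match, beside 3 CCAAT and 2 CHR matches. Top2a, on chr11:99024190-99024439 (minus strand), has 6 CCAAT and 4 CHR matches. Bub1, on chr2:127831860-127832109 (minus strand), has 2 CCAAT matches here and a CHR match at base 15 after the start, outside the run. Tk1, on chr11:117826015-117826264 (minus strand), and Mybl2, on chr2:163054385-163054634 (plus strand), have no exact match to these letters. The search misses sites that differ in a letter. Near its end the Mybl2 run holds cttggcgg, which differs from the searched TTTGGCGG in the first letter only.
Rfc3: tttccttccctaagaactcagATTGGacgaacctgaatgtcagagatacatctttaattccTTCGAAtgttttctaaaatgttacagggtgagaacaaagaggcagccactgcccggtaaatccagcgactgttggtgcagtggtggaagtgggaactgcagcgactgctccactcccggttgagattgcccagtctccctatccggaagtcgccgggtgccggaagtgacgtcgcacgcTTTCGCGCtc
Mcm5: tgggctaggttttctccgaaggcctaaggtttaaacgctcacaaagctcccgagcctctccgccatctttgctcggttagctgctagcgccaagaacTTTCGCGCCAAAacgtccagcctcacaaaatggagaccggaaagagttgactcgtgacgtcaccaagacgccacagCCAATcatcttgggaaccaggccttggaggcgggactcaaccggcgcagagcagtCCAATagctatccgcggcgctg
Cdk1: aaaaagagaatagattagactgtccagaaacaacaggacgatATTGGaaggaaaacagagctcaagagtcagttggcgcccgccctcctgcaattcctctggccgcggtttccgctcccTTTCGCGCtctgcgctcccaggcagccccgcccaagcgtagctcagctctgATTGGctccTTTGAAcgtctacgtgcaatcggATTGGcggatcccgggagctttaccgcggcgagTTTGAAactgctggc
Top2a: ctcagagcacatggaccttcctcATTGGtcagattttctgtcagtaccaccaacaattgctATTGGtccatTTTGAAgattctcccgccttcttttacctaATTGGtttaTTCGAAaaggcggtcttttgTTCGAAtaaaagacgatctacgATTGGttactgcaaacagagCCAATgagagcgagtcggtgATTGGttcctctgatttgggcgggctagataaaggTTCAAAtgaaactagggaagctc
Bub1: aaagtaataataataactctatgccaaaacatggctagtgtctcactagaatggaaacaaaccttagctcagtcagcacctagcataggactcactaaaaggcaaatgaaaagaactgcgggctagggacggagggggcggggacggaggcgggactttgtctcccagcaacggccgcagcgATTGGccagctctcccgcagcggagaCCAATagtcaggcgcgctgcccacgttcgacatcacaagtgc
Tk1: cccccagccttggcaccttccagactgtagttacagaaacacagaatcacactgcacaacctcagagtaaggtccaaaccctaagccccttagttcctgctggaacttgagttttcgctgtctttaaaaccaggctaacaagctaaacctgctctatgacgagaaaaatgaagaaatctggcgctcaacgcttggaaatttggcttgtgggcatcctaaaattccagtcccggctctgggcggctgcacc
Mybl2: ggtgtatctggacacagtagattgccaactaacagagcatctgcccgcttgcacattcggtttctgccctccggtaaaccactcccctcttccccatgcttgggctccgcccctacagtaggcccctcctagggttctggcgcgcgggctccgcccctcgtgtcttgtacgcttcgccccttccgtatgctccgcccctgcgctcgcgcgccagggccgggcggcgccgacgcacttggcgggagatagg

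Over the whole windows, an E2F match stood in 8 of 40 members (20%) and in 2.70% of the windows of 27025 genes. All but Cdk1 of these were S-phase members (Mcm3, Mcm5, Mcm6, Mcm7, Cdc6, Cdt1 and Rfc3), which makes 7 of 18 S-phase members (38.9%) against 1 of 22 G2/M members (4.55%). A CHR match stood in 17 of 22 G2/M members (77.3%), in 4 of 18 S-phase members (22.2%) and in 21.7% of all genes. Each of the 21 members with a CHR match also had a CCAAT match, a pair found in 9.65% of all genes. A CCAAT match, with or without the other motifs, was present in 30 of 40 members (75.0%) and in 41.1% of all genes. These are exact matches of letters in a fixed window, so sites of other letters are missed, and they were not tested as binding sites.

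**Figure D1:**
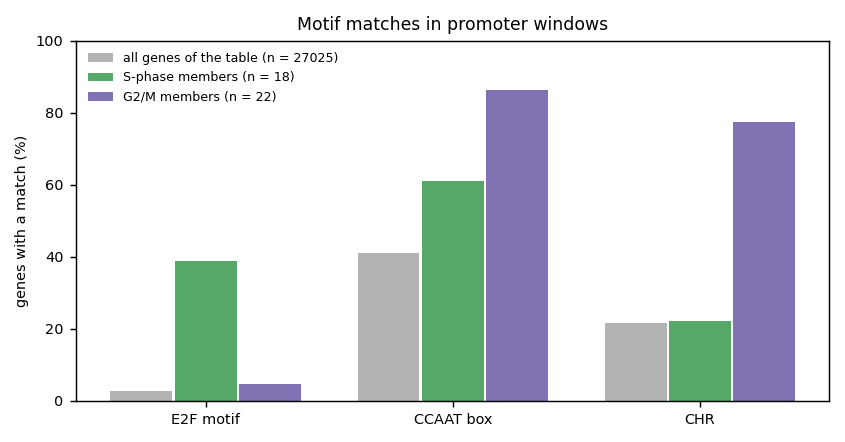
Share of promoter windows (percent, vertical axis) with a match to E2F, CCAAT or CHR letters among 18 S-phase members, 22 G2/M members and 27025 genes of the RefSeq table. E2F matches are most frequent in the S-phase members (38.9%) and CHR matches in the G2/M members (77.3%).

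All 49 genes were expressed in cells with neither perturbation, so none was silent there. How much repression acted on them in these cells was not measured. In the sgCtrL libraries without IFNγ, mean levels per transcript length ran from 13.4 TPM (Ccne2, cyclin E2) to 593 ± 4.07 TPM (SD, n = 3) for Pcna, the sliding clamp of the replication fork. Top2a, which untangles chromosomes, followed with 358 ± 9.18 TPM. Ube2c, the ubiquitin-conjugating enzyme of the anaphase-promoting complex (333 ± 7.36 TPM), Birc5 (survivin, 315 ± 4.98 TPM) and Tk1 (thymidine kinase, 314 ± 12.8 TPM) came next, and the last pair did not differ beyond their spread. The lowest levels were those of Gins1 (38.1 TPM), E2f1, Gins2, Ccne1, Cenpf, Ttk and Ccne2.

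The mean log2 CPM over the members gave each library 1 value per class. For the G2/M members it was 7.10 in both untreated sgCtrL libraries and 7.01 in both Sin3Bsg1 libraries. Without IFNγ the sgCtrL libraries lay at 7.05 to 7.07 and the Sin3Bsg1 libraries at 6.95 to 6.96. With IFNγ they lay at 7.20 to 7.27 and at 7.18 to 7.20. The S-phase members gave 6.61 and 6.62 against 6.56 and 6.56 in the untreated experiment, 6.73 to 6.74 against 6.64 to 6.69 without IFNγ, and 6.96 to 7.04 against 6.93 to 6.98 with IFNγ. All IFNγ libraries were thus above all libraries of the same experiment without IFNγ in both classes, and the guides overlapped only for the S-phase members under IFNγ. In bulk samples, fewer cycling cells and less RNA per cell cannot be told apart. The paper reports that loss of Sin3B had no effect on the proliferation of KPC1199 cells in culture, measured by a viability assay. The highest value with IFNγ in both classes came from replicate 1 of sgCtrL with IFNγ, which stood apart from its group. Per gene, the mean chi-square of its counts was 23.2 and 19.5 against the other two replicates and 4.12 between those, and it was above both in 36 members and below both in 12.

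**Figure D2:**
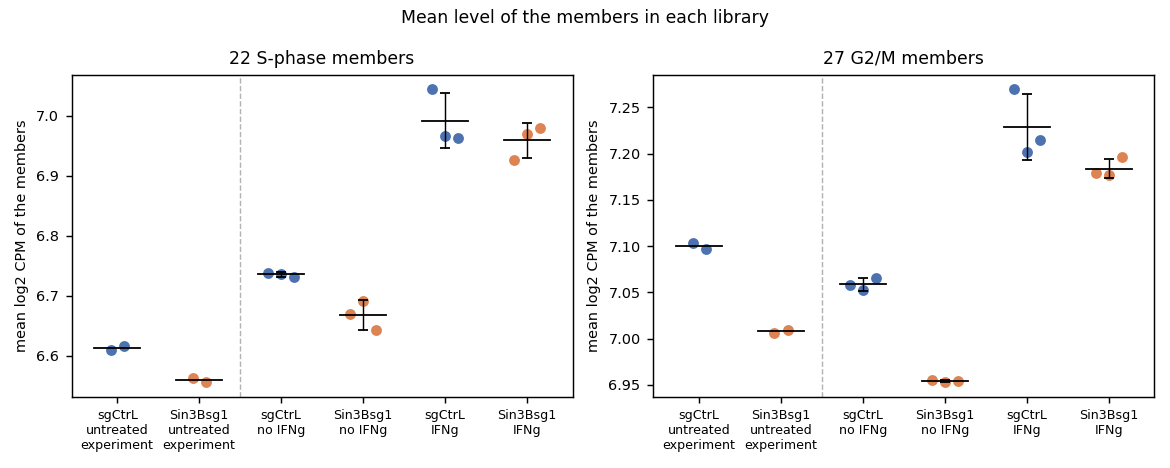
Mean log2 CPM over the 22 S-phase members and the 27 G2/M members in each of 16 libraries (points), by group, with the group mean and, for groups of 3, the SD as a bar; the vertical axis does not start at 0. The libraries with IFNγ lie highest in both panels, and without IFNγ the Sin3Bsg1 libraries lie below sgCtrL in both experiments.

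In the untreated experiment, the comparison of guides asked whether loss of Sin3b alone raised the genes. Of 49 members, 19 were lower in Sin3Bsg1 cells (38.8%) and 2 were higher, where 16% of 14589 genes tested were called lower and 15.1% higher. The median log2 fold change of the members was -0.08, against 0.00 over all genes, and no member changed by more than 1.20-fold. The G2/M members gave 13 lower and 1 higher (median -0.10), and the S-phase members 6 lower and 1 higher (median -0.05). The 2 Sin3Bsg1 libraries lay below both controls in 34 members and above them in 5, where 31.4% and 31.9% of all genes did so.

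The enzymes of nucleotide supply held the largest single change. Tyms (ENSMUSG00000025747), thymidylate synthase, stood at 74.0 and 71.5 CPM in sgCtrL and at 61.4 and 60.2 CPM in Sin3Bsg1 cells (log2 fold change -0.26 ± 0.041, adjusted p = 0.000146). Tk1 (ENSMUSG00000025574), which salvages thymidine for DNA synthesis, stood at 247 and 249.1 against 214 and 212 CPM (log2 fold change -0.22 ± 0.025, adjusted p = 3.61e-06). Both groups were tight and did not overlap in either gene, while both ribonucleotide reductase subunits missed the threshold (Rrm1 -0.06, Rrm2 -0.00). Rfc3 (ENSMUSG00000033970), a subunit of the clamp loader, fell from 49.4 and 49.3 to 43.0 and 41.4 CPM (log2 fold change -0.23 ± 0.049, adjusted p = 0.00213). Its partner Rfc4 and the clamp Pcna did not pass the test (0.17 and -0.01). Of 12 genes of origin licensing and the replicative helicase, Mcm4 (-0.14), Mcm7 (-0.13) and Gins2 (-0.16) fell, Mcm3 rose (0.07), and 8 did not pass. The call on Gins2 was lost without sgCtrL replicate 1 (adjusted p = 0.0695) or Sin3Bsg1 replicate 2 (0.0518).

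Among the mitotic genes, Cenpa (ENSMUSG00000029177), the histone H3 variant that marks centromeres, stood at 109.6 and 103 CPM in sgCtrL and at 89.0 and 90.9 CPM in Sin3Bsg1 cells (log2 fold change -0.24 ± 0.039, adjusted p = 0.000152). Mki67, the source of the Ki-67 proliferation antigen, went from 541 and 525 to 480.2 and 476 CPM (log2 fold change -0.16 ± 0.021, adjusted p = 2.3e-05). In both genes all Sin3Bsg1 libraries were the lower ones. Foxm1, the forkhead activator of G2/M genes, fell as well (169 and 161 against 152 and 149 CPM, log2 fold change -0.13 ± 0.032, adjusted p = 0.00393), and so did Mybl2 (ENSMUSG00000017861; 93.4 and 91.5 against 86.6 and 85.0 CPM, log2 fold change -0.11 ± 0.036, adjusted p = 0.0337). The call on Mybl2 was lost without any 1 of the 4 libraries (adjusted p of 0.0523 to 0.18) and that on Foxm1 without sgCtrL replicate 1 (0.0654). Of 8 mitotic kinases and passenger proteins, Plk1 (-0.15), Bub1 (-0.15), Bub1b (-0.14) and Birc5 (-0.17) fell, and Aurka, Aurkb, Ttk and Cdca8 did not pass. Ccna2, Cdc20 and Ube2c were the 3 of 6 genes of mitotic cyclins and anaphase that fell (-0.12, -0.12 and -0.08), and Ccnb1, cyclin B1, with 132 and 134 against 126 and 130.3 CPM, missed the threshold (log2 fold change -0.05 ± 0.032, adjusted p = 0.263). Kif23, the kinesin of the central spindle, was higher (0.13) and Kif20a lower (-0.19). Both calls on higher members, Mcm3 and Kif23, were lost without sgCtrL replicate 1 (adjusted p = 0.0983 and 0.066) or 2 (0.0751 and 0.0664). Kif23 was also lost without Sin3Bsg1 replicate 1 (0.215) and Mcm3 without Sin3Bsg1 replicate 2 (0.115). Of the lower members, Cdc20 was lost without sgCtrL replicate 1 (0.0633) or Sin3Bsg1 replicate 2 (0.094).

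Without IFNγ in the second experiment, the same guides were compared in 6 other libraries. Here 13 of 49 members were lower in Sin3Bsg1 cells (26.5%) and 0 were higher, against 9.33% and 7.89% of 14913 genes tested (edgeR). At an unadjusted p under 0.05 there were 2 higher members, and DESeq2 called 1, Mcm2. The median was -0.11, against -0.01 over all genes, and no member changed by more than 1.22-fold. The groups did not overlap in 28 members that were lower and in 4 that were higher, which 20.9% and 18.3% of all genes showed. The G2/M members accounted for 10 of the 13 (median -0.12) and the S-phase members for 3 (median -0.08).

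Aurka (ENSMUSG00000027496), the kinase of centrosome maturation, fell the most among those called, from 79.0, 77.4 and 83.6 CPM in sgCtrL to 65.0, 67.0 and 66.9 CPM in Sin3Bsg1 cells (log2 fold change -0.27 ± 0.051, adjusted p = 0.00142). Cdk1 (ENSMUSG00000019942), the kinase that drives entry into mitosis, went from 114, 113 and 117 to 95.2, 96.9 and 98.3 CPM (log2 fold change -0.24 ± 0.059, adjusted p = 0.00866). All 3 Sin3Bsg1 libraries were below all sgCtrL libraries in both kinases. Cdc45 (ENSMUSG00000000028), part of the active helicase, stood at 74.5, 72.3 and 72.5 against 59.6, 66.9 and 58.6 CPM (log2 fold change -0.24 ± 0.053, adjusted p = 0.00437), and Mybl2 at 92.2, 87.9 and 82.1 against 72.1, 75.2 and 74.9 CPM (log2 fold change -0.24 ± 0.058, adjusted p = 0.00927). Neither overlapped between guides, and the call on Mybl2 was lost without replicate 1 of sgCtrL without IFNγ (adjusted p = 0.0586). The other calls were Tyms (-0.24), Ube2c (-0.21), Top2a (-0.21), Tpx2, which activates Aurora A on the spindle (-0.20), Bub1, a kinase of the spindle checkpoint (-0.19), Cenpa (-0.18), Cenpe, the kinetochore kinesin (-0.17), Tk1 (-0.17) and Ccna2, cyclin A2 (-0.14). Cenpe was lost without any 1 sgCtrL library (adjusted p of 0.0657 to 0.11), without Sin3Bsg1 replicate 1 or 2 (0.126 and 0.124) and with total counts (0.0594). Among the IFNγ libraries, Cenpe was lost without sgCtrL replicate 2 or any 1 Sin3Bsg1 library (0.0527 to 0.0763). Foxm1 (0.01 ± 0.056), Mki67 (-0.03 ± 0.066), Ccnb1 (-0.12 ± 0.051), E2f1 (-0.11 ± 0.073) and Mcm2 (0.13 ± 0.050) did not pass. The count of lower members depended on single libraries, falling to 6 without replicate 1 of sgCtrL and to 8 without its replicate 3 or without replicate 2 of Sin3Bsg1, and reaching 17 without replicate 1 of sgCtrL with IFNγ. With only the 6 libraries of this comparison, 22 members were lower and 3 higher. Higher members numbered 1 to 3 without sgCtrL with IFNγ replicate 1 (3) or 2 (2) or Sin3Bsg1 with IFNγ replicate 1 (1) or 3 (2), libraries that are outside this comparison and enter through the shared fit. Mcm2, Mcm6 and Kif23 were the genes concerned.

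With IFNγ, 5 members were lower in Sin3Bsg1 cells (10.2%) and 3 were higher (6.12%), against 7.90% and 8.62% of 14913 genes. These shares were near those of all genes. The median was -0.05, with 0.00 over all genes, and the guides did not overlap in 13 members that were lower and 4 that were higher (14.9% and 15.4% of all genes).

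Gins1 (ENSMUSG00000027454), a subunit of the GINS part of the helicase, had the largest difference, with 28.7, 25.5 and 29.1 CPM in sgCtrL and 18.7, 24.0 and 22.3 CPM in Sin3Bsg1 cells (log2 fold change -0.36 ± 0.10, adjusted p = 0.0252). Mybl2 stood at 142, 123 and 124 against 105, 106 and 106 CPM (log2 fold change -0.29 ± 0.057, adjusted p = 0.00186) and Aurka at 97.3, 86.9 and 95.3 against 82.4, 81.1 and 82.7 CPM (log2 fold change -0.18 ± 0.050, adjusted p = 0.0197). The lower groups did not overlap the controls in these 3 genes. Bub1 (-0.18) and Tk1 (-0.14) were the other members that were lower. The helicase subunits Mcm5 (ENSMUSG00000005410; 292, 288 and 266 against 317, 326 and 316 CPM, log2 fold change 0.18 ± 0.047, adjusted p = 0.0138) and Mcm2 (309, 279.7 and 272 against 324, 331 and 318 CPM, log2 fold change 0.18 ± 0.050, adjusted p = 0.023) were higher, as was Kif23 (0.15). Most of these calls rested on single libraries. Leaving out sgCtrL replicate 1 gave 6 lower and 6 higher members, sgCtrL replicate 2 gave 4 and 1, and sgCtrL replicate 3 gave 1 and 0. Leaving out Sin3Bsg1 replicate 1 or 2 gave 3 and 1, and Sin3Bsg1 replicate 3 gave 2 and 2. With only the 6 libraries of this comparison, 2 members, Gins1 and Mybl2, were lower and 0 higher, and the calls on Aurka (adjusted p = 0.0771), Bub1 (0.0947), Tk1 (0.135), Mcm5 (0.0919), Mcm2 (0.123) and Kif23 (0.165) were lost. Mybl2 was called in each of these, with an adjusted p between 3.73e-05 and 0.0168 over its 13 alternatives. Gins1 was lost without sgCtrL replicate 3 (0.0822) or Sin3Bsg1 replicate 1 (0.111) or 3 (0.0506), and Aurka without sgCtrL replicate 1 (0.0636) or 3 (0.0683) or Sin3Bsg1 replicate 2 (0.0679). Mcm5 was lost without sgCtrL replicate 3 (0.0682) or Sin3Bsg1 replicate 2 (0.0621), and Mcm2 without sgCtrL replicate 2 (0.0608) or 3 (0.0984) or Sin3Bsg1 replicate 1 (0.0506) or 2 (0.0821).

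The 3 comparisons of guides used separate libraries. Bub1, Mybl2 and Tk1 were lower in all 3. Another 5 members, Ccna2, Cenpa, Top2a, Tyms and Ube2c, were lower in both comparisons without IFNγ, so that the 8 shared calls made up 42.1% of the 19 and 61.5% of the 13. Over the 13848 genes tested in both experiments, calls shared in this way made up 31.2% of the 2301 lower genes of the first and 53.7% of the 1336 of the second. Lower in all 3 comparisons were 6.12% of the members and 3.59% of these genes. Tk1 had log2 fold changes of -0.22 ± 0.025, -0.17 ± 0.044 and -0.14 ± 0.044 in the untreated cells, without IFNγ and with IFNγ, with 214, 208 and 198 against 187, 182 and 181 CPM without IFNγ and 196, 205 and 206 against 181, 183 and 189 CPM with it. In each case all Sin3Bsg1 libraries were below all sgCtrL libraries. Bub1 (ENSMUSG00000027379) had -0.15 ± 0.045, -0.19 ± 0.054 and -0.18 ± 0.053, with 75.7 and 73.2 against 64.2 and 69.8 CPM in the untreated cells. Top2a (ENSMUSG00000020914), with -0.10 ± 0.018 and -0.21 ± 0.037 in the first pair of comparisons, passed the threshold there under each of 10 and 13 alternatives that kept it. Several shared calls rested on single libraries, and the largest adjusted p over the alternatives of a comparison is given in parentheses. Mybl2 was lost in the untreated cells without any 1 of the 4 libraries and in DESeq2 (0.18). Bub1 was lost there without replicate 1 of either guide (0.208). It was lost without IFNγ when sgCtrL replicate 1 or 3 or Sin3Bsg1 replicate 1 or 2 was left out (0.108), and with IFNγ when replicate 1 or 3 of either guide was left out or the 6 libraries were fitted alone (0.103). Tk1 without IFNγ was lost without sgCtrL replicate 1 or Sin3Bsg1 replicate 2 (0.0706), and Tyms without sgCtrL replicate 3 (0.072). Ube2c was lost in the untreated cells without any 1 of the 4 libraries and in DESeq2 (0.169), and without IFNγ when sgCtrL replicate 1 or 3 or Sin3Bsg1 replicate 2 or 3 was left out (0.0862). Tk1 with IFNγ passed in 5 of 13 alternatives and was lost without sgCtrL replicate 2 or 3, without any 1 Sin3Bsg1 library, with no filter on low counts and with the 6 libraries fitted alone (0.137). It was lost as well without any 1 of the 6 libraries of cells without IFNγ, which enter through the shared fit (0.0518 to 0.0656). Cenpa without IFNγ passed in 4 of 13 (0.136) and Ccna2 in 5 of 13 (0.129), both lost without any 1 of the 6 libraries and, among the IFNγ libraries, without sgCtrL replicate 2 or any 1 Sin3Bsg1 library. Cenpa was lost there as well with RLE factors (0.0519), total counts (0.0833) or a floor of 10 counts in every library (0.0538). Ccna2 was lost as well with RLE factors (0.0516) or no filter on low counts (0.129). Of all members, 25 had a negative fold change in each of the 3 comparisons (51.0%, against 25.4% of the 13848 genes) and 5, Ccne2, Kif23, Mcm10, Mcm2 and Mcm5, a positive one (10.2% against 24.9%). Called in none were 20 members (40.8%) and 57.5% of the genes. E2f1 was among the uncalled, with 47.1 and 49.6 against 46.9 and 46.2 CPM in the untreated cells (log2 fold change -0.05 ± 0.049, adjusted p = 0.468) and -0.11 ± 0.073 and -0.19 ± 0.070 in the other 2. In none of the 3 did higher members outnumber lower ones, and Kif23 was the 1 member that was higher past the threshold in more than 1 comparison (0.13 ± 0.038 and 0.15 ± 0.045, with 0.12 ± 0.045 missing it). Kif23 was lost in the untreated cells without sgCtrL replicate 1 or 2 or Sin3Bsg1 replicate 1, and with IFNγ without sgCtrL replicate 2 or 3 or Sin3Bsg1 replicate 1 or 3, or, among the cells without IFNγ, sgCtrL replicate 1 or Sin3Bsg1 replicate 1 or 2 (largest adjusted p over all alternatives 0.215 and 0.165).

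**Figure D3:**
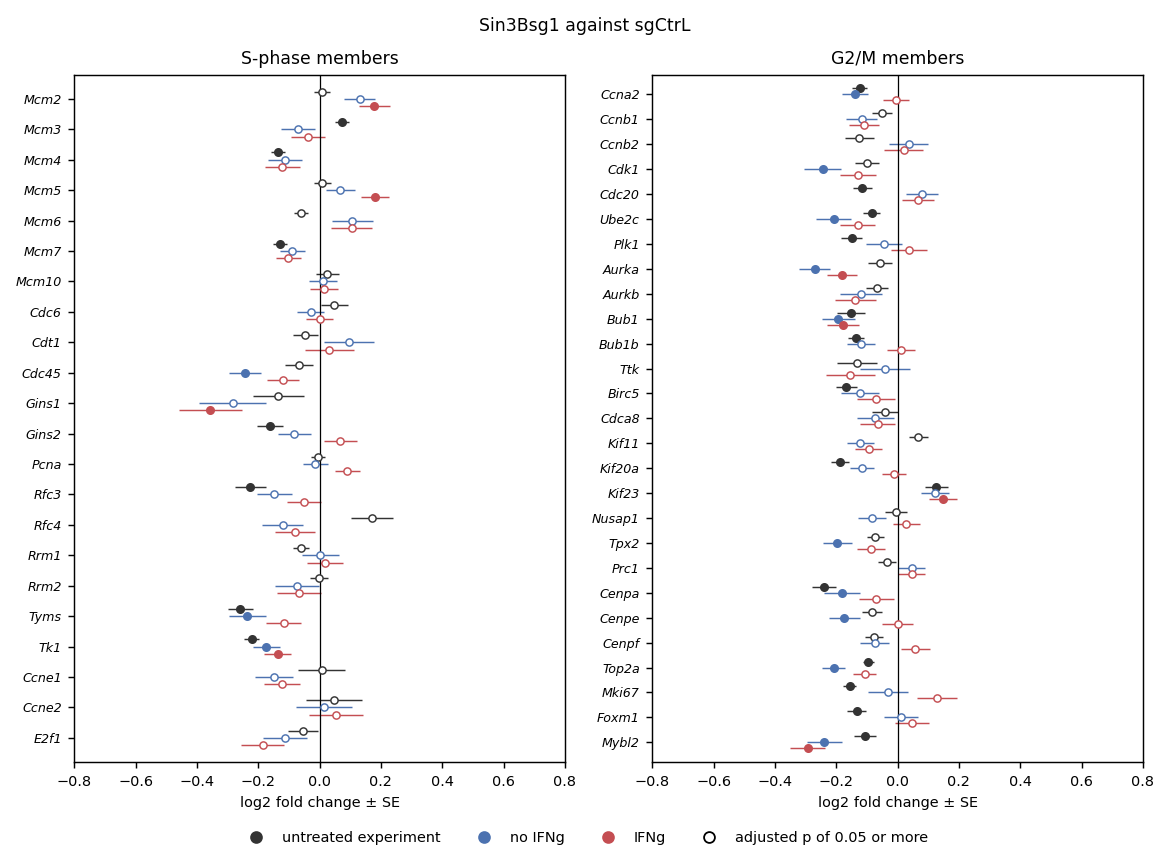
Log2 fold change of Sin3Bsg1 against sgCtrL (horizontal axis) for each of the 49 members, with 1 SE as bars, in the untreated experiment, without IFNγ and with IFNγ, with a panel for each class; filled points passed an adjusted p of 0.05 by edgeR. Most points lie left of 0, and 19, 13 and 5 members are called lower.

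IFNγ raised most of the genes, in cells with either guide. In sgCtrL cells 33 of 49 members were higher with IFNγ (67.3%) and 0 were lower, where 15.7% of 14913 genes tested were called higher and 14.5% lower. The median log2 fold change was 0.19, against 0.00 over all genes. The groups did not overlap in 35 members that were higher and 1 that was lower (20.8% and 20.7% of all genes), and 1 member was lower at an unadjusted p under 0.05. The S-phase members gave 17 of 22 higher (median 0.27) and the G2/M members 16 of 27 (median 0.17). By DESeq2, without sgCtrL with IFNγ replicate 1, or with total counts in place of TMM factors, 1 member, the checkpoint kinase gene Bub1b, was called lower (-0.11 ± 0.046 by edgeR with TMM, not past the threshold). Total counts gave 22 higher members and moved the share of higher genes among all calls from 52.0 to 34.7%.

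Rfc3 rose most, from 59.6, 59.2 and 58.9 CPM to 91.5, 89.2 and 87.8 CPM (log2 fold change 0.59 ± 0.056, adjusted p = 6.06e-07), which is 1.51-fold. Mybl2 rose from 92.2, 87.9 and 82.1 to 142, 123 and 124 CPM (log2 fold change 0.57 ± 0.057, adjusted p = 1.36e-06). Gins1 went from 18.4, 21.9 and 16.4 to 28.7, 25.5 and 29.1 CPM (log2 fold change 0.55 ± 0.10, adjusted p = 0.000938). In each of the 3 genes all treated libraries were above all untreated ones, and in Gins1, the least abundant by CPM of the genes shown, the libraries of a group were farther apart. Top2a rose from 870.3, 845 and 845 to 1266, 1216 and 1242 CPM (log2 fold change 0.54 ± 0.037, adjusted p = 1.5e-08). All 3 regulators of the G1/S step were higher, E2f1 with 42.8, 42.0 and 46.5 against 59.9, 54.9 and 59.2 CPM (log2 fold change 0.41 ± 0.072, adjusted p = 0.000456) and the cyclins Ccne1 and Ccne2 with 0.39 and 0.34. Foxm1 rose from 155, 149 and 151 to 215, 199.9 and 189 CPM (log2 fold change 0.41 ± 0.056, adjusted p = 4.05e-05). Of the licensing and helicase genes 11 of 12 were higher, Mcm2 among them (243, 238 and 249.6 against 309, 279.7 and 272 CPM, log2 fold change 0.24 ± 0.051, adjusted p = 0.00214), and Gins2 was not (-0.04). The rise did not extend to all replication genes, with Pcna (0.07), Rfc4 (0.06), Tyms (0.08) and Tk1 (-0.03) short of the threshold, while Rrm2 rose (0.46). Among mitotic genes Cenpe (0.25), Aurkb (0.24), Cdca8, which encodes borealin (0.23), Aurka (0.22) and Tpx2 (0.21) rose. Mki67, with 588, 591 and 600.2 against 497, 602 and 593 CPM (log2 fold change -0.07 ± 0.066, adjusted p = 0.449), and Ccnb1, with 145, 144 and 134 against 162, 143 and 148 CPM (log2 fold change 0.10 ± 0.051, adjusted p = 0.166), did not pass, nor did Plk1 (0.06), Cdc20 (0.05) and Cenpa (-0.03).

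In Sin3Bsg1 cells 39 of 49 members were higher with IFNγ (79.6%) and 0 were lower by edgeR, at an unadjusted p under 0.05 (0) or by DESeq2 (0), against 16.1% and 12.3% of all genes. The median was 0.24, with 0.01 over all genes, and the groups did not overlap in 41 members that were higher and 0 that were lower (24.3% and 21.1% of all genes). With total counts 26 members were higher, and the share of higher genes among all calls moved from 56.6 to 33.6%. The S-phase members gave 19 of 22 (median 0.29) and the G2/M members 20 of 27 (median 0.20).

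Rfc3 again rose most, from 52.0, 57.5 and 51.0 to 81.5, 92.0 and 85.6 CPM (log2 fold change 0.69 ± 0.056, adjusted p = 8.81e-08), which is 1.62-fold. Top2a rose from 728, 728 and 761 to 1178, 1145 and 1134 CPM (log2 fold change 0.64 ± 0.038, adjusted p = 1.51e-09) and Mybl2 from 72.1, 75.2 and 74.9 to 105, 106 and 106 CPM (log2 fold change 0.51 ± 0.058, adjusted p = 4.16e-06). None of the 3 overlapped between groups. Gins1 went from 15.04, 16.3 and 15.6 to 18.7, 24.0 and 22.3 CPM (log2 fold change 0.47 ± 0.11, adjusted p = 0.00318), E2f1 from 41.8, 42.0 and 37.5 to 45.6, 53.9 and 53.3 CPM (log2 fold change 0.33 ± 0.072, adjusted p = 0.00222) and Foxm1 from 155, 159 and 145 to 219.6, 204 and 200.2 CPM (log2 fold change 0.44 ± 0.056, adjusted p = 1.58e-05). These genes were higher in all treated libraries too. Mcm2 rose from 267, 276 and 258 to 324, 331 and 318 CPM (log2 fold change 0.28 ± 0.050, adjusted p = 0.000454). Mki67 (579, 571 and 589 against 662, 615 and 571 CPM, log2 fold change 0.09 ± 0.066, adjusted p = 0.358) and Ccnb1 (130.2, 130.1 and 130 against 143, 139 and 138 CPM, log2 fold change 0.11 ± 0.051, adjusted p = 0.136) did not pass. The 33 members called in sgCtrL cells were all called here, where they made up 84.6% of the 39, while the 1809 genes called higher in both made up 77.2% and 75.5% of all genes called higher. The 6 members called in Sin3Bsg1 cells alone past the threshold were Birc5, Cdk1, Kif20a, Nusap1, Pcna and Tyms (0.15 to 0.26). Called in neither guide were Bub1b, Ccnb1, Cdc20, Cenpa, Gins2, Mki67, Plk1, Rfc4, Tk1 and Ttk.

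**Figure D4:**
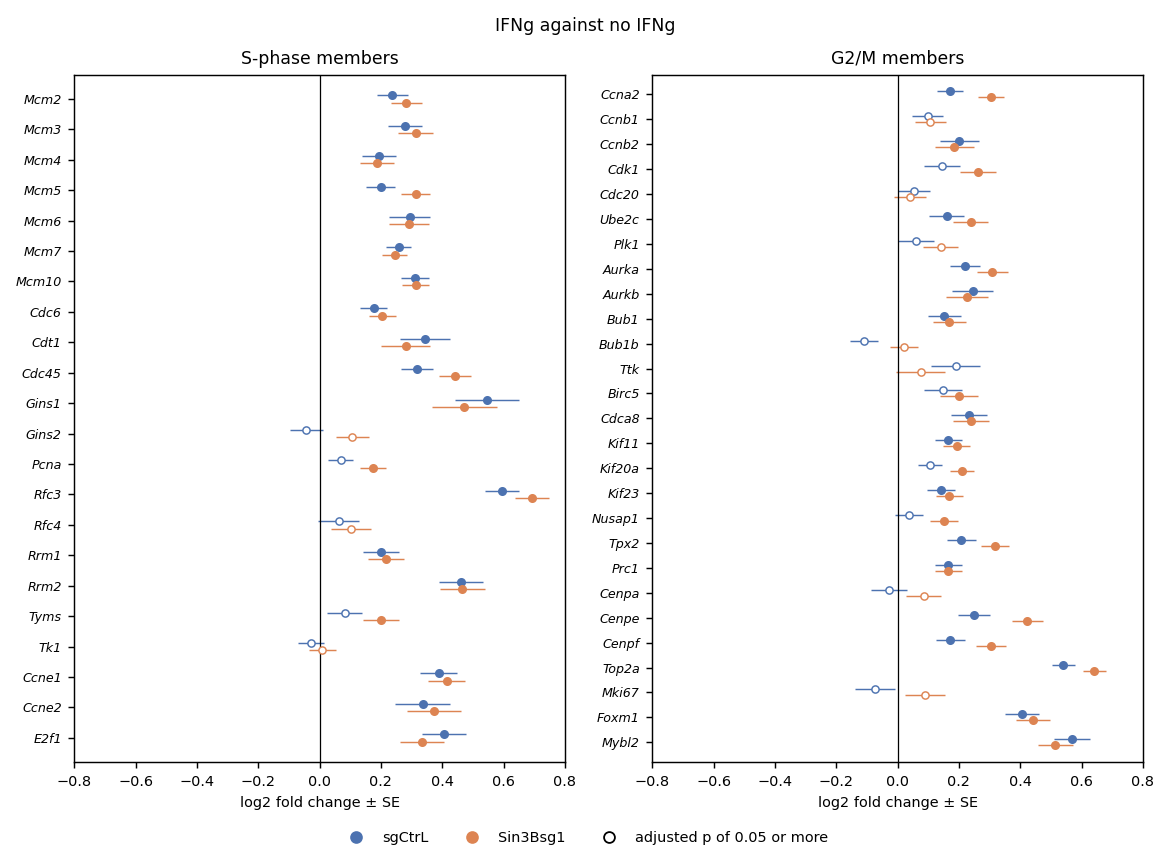
Log2 fold change with IFNγ against without (horizontal axis) for each of the 49 members, with 1 SE as bars, in sgCtrL and in Sin3Bsg1 cells, with a panel for each class; filled points passed an adjusted p of 0.05 by edgeR. Rfc3, Mybl2, Gins1 and Top2a lie farthest to the right in their panels, and no called member lies left of 0.

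Whether IFNγ acted differently in the 2 genotypes was tested as an interaction. No member passed (0 of 49 by edgeR and 0 by DESeq2), where 0.114% of 14913 genes did, and 2 members had an unadjusted p under 0.05. The median of the differences in log2 fold change (Sin3Bsg1 minus sgCtrL) was 0.04, with 0.01 over all genes, and they ran from -0.11 (Ttk) to 0.17 (Cenpe). Cenpe had 168, 169 and 174 CPM without and 194, 200.1 and 213 CPM with IFNγ in sgCtrL cells, and 146, 146 and 161 CPM without and 209, 202 and 196 CPM with it in Sin3Bsg1 cells (difference 0.17 ± 0.072, unadjusted p = 0.0295, adjusted p = 0.888 by edgeR). Ccna2 had 250.3, 244 and 244 CPM without and 289.9, 273 and 268 CPM with IFNγ in sgCtrL, and 222, 224 and 225 CPM without and 281, 269.9 and 277 CPM with it in Sin3Bsg1 cells (difference 0.13 ± 0.060, adjusted p = 0.907). In these genes the Sin3Bsg1 libraries were the lower ones without IFNγ and stood near the sgCtrL libraries with it. Bub1b had 206, 202 and 205 CPM without and 199, 185 and 184 CPM with IFNγ in sgCtrL, and 193, 189 and 182 CPM without and 189.7, 197 and 185 CPM with it in Sin3Bsg1 cells (difference 0.13 ± 0.065, adjusted p = 0.912). Cenpf, a kinetochore protein of late G2, had 153, 153 and 153 CPM without and 166, 178 and 173 CPM with IFNγ in sgCtrL, and 143, 138 and 155 CPM without and 179, 177 and 182 CPM with it in Sin3Bsg1 cells (difference 0.13 ± 0.068, adjusted p = 0.912). The 6 members called with IFNγ in Sin3Bsg1 cells and not in sgCtrL cells are therefore not shown to differ between the guides.

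**Figure D5:**
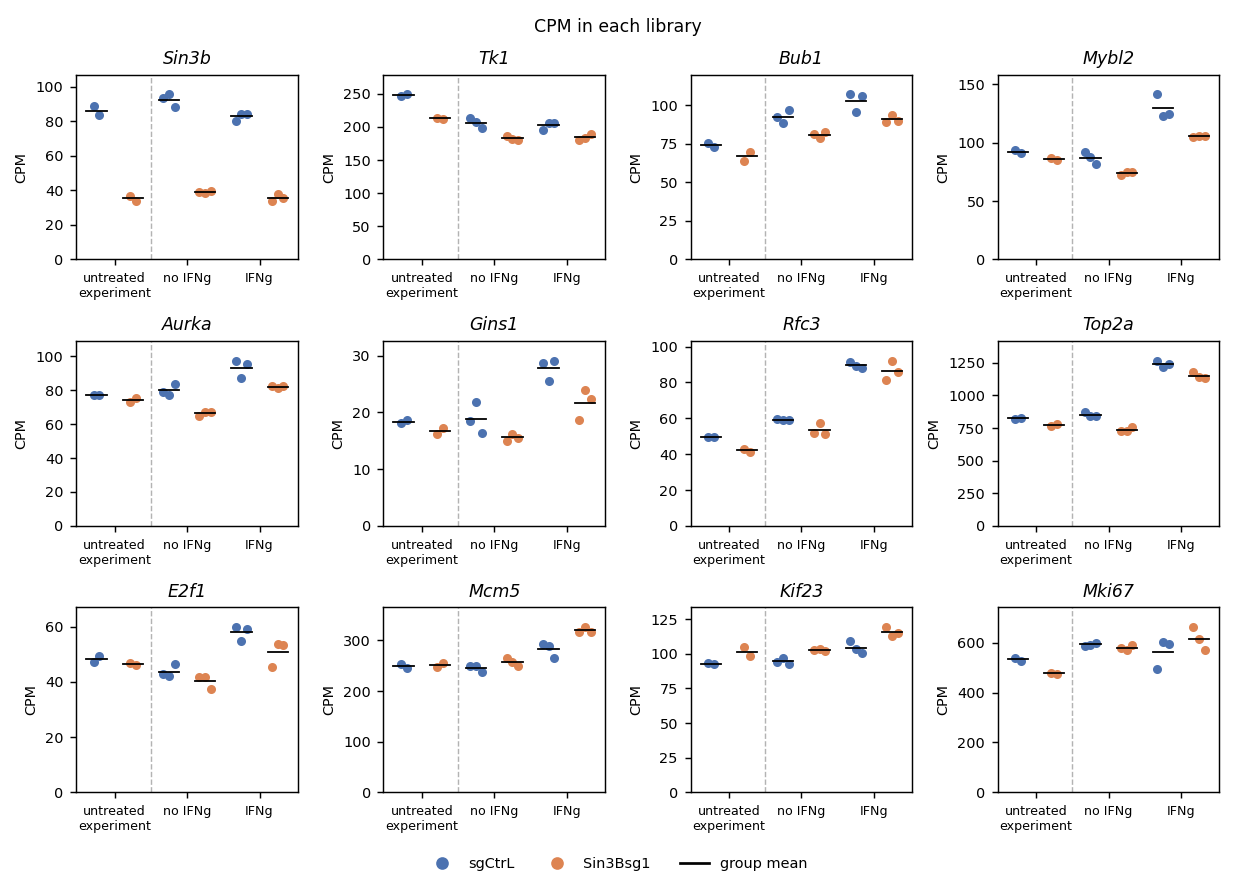
CPM (TMM-scaled, vertical axes from 0) of Sin3b and 11 members in each of 16 libraries, by group. Sin3b is lower in every Sin3Bsg1 library, and Rfc3, Top2a, Mybl2 and Gins1 are higher in every library with IFNγ than in the libraries of the same guide and experiment without it.

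The thresholds stated in the study's methods, a fold of 1.5 or 1.3 with an unadjusted p under 0.05, were applied to the edgeR fits as well. At 1.5-fold no member was called between guides (0 higher and 0 lower), where 5.08% and 4.06% of all genes were called higher and lower in the untreated cells, 4.08% and 3.46% without IFNγ, and 3.98% and 2.97% with IFNγ. At 1.3-fold there was again 0 of 49, beside 7.23% and 6.19%, 5.83% and 5.23%, and 6.02% and 4.67% of all genes. For IFNγ, 1 member in sgCtrL cells and 2 in Sin3Bsg1 cells were higher at 1.5-fold (5.41% and 5.58% of all genes), and 8 and 9 at 1.3-fold (8.21% and 8.09%). Lower members numbered 0 in both, beside 5.74% and 5.19% of all genes at 1.5-fold and 9.21% and 8.23% at 1.3-fold.

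The motif classes of the promoters were set beside the calls as a description. Of the 8 members with an E2F match, 7 were higher with IFNγ in sgCtrL cells and 8 in Sin3Bsg1 cells, and of the 32 without one, 19 and 23, beside 15.7% and 16.1% of all genes. Of the 21 members with a CHR match, 14 and 15 were higher, and of the 19 without one, 12 and 16. In the untreated comparison of guides, 10 of the 21 with a CHR match were lower, among them Top2a, and 4 of the 19 without. Without IFNγ these were 7 and 4, and with IFNγ 2 and 2. With an E2F match, 2, 1 and 0 of 8 members were lower in the untreated cells, without IFNγ and with IFNγ, and without one 12, 10 and 4 of 32. The shares of all genes called lower were 16%, 9.33% and 7.90% in these comparisons. Rfc3, with E2F, CHR and CCAAT matches, Top2a, with 4 CHR and 6 CCAAT matches, and Mybl2, with no exact match, all rose with IFNγ.

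Other genes of the pathway were described from lists. All 96 were tested. Of 24 regulators, 10 were higher and 2 lower with IFNγ in sgCtrL cells, and 14 and 2 in Sin3Bsg1 cells. These were 41.7% and 8.33%, and 58.3% and 8.33%, of the 24. Of all genes, 15.7% were called higher and 14.5% lower in sgCtrL cells, and 16.1% and 12.3% in Sin3Bsg1 cells. Rbl1, which encodes p107, rose most (0.66 ± 0.051, adjusted p = 5.42e-08, and 0.68 ± 0.051, adjusted p = 3.29e-08 by edgeR). Cdk6 (0.53 and 0.49), its partner Ccnd1 (cyclin D1, 0.44 and 0.39) and Lin54, the subunit of MuvB that binds CHR elements (0.34 and 0.38), rose in both genotypes too. Lin9 (0.23 and 0.32) and E2f4, the main repressor E2F of DREAM (0.19 and 0.21), rose as well. Rbl2, which encodes p130, fell in sgCtrL cells (-0.24, adjusted p = 0.00809) and did not pass in Sin3Bsg1 cells (-0.10), and Tfdp2, a DP partner of E2F, fell in both (-0.26 and -0.23). Between guides, the D-type cyclins Ccnd1 (0.22, 0.43 and 0.38 in the untreated cells, without and with IFNγ) and Ccnd2 (0.28, 0.48 and 0.34) were higher in Sin3Bsg1 cells in all 3 comparisons. Rbl1 was higher in the untreated cells (0.20) and did not pass in the other 2 (-0.15 and -0.13), and E2f4, Rbl2 and Lin9 passed in none. In counts, 4 regulators were higher and 3 lower in the untreated cells, 2 and 3 without IFNγ, and 3 and 0 with IFNγ. These were 16.7% and 12.5%, 8.33% and 12.5%, and 12.5% and 0% of the 24, where 15.1% and 16%, 7.89% and 9.33%, and 8.62% and 7.90% of all genes were called higher and lower, so most of the shares were near those of all genes.

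A further 32 S-phase targets gave 23 and 24 higher with IFNγ in sgCtrL and Sin3Bsg1 cells, and 40 further G2/M targets gave 20 and 28. In either genotype 0 of them were lower, by edgeR, at an unadjusted p under 0.05 or by DESeq2. Asf1b and Chaf1b, chaperones that place histones behind the fork (0.34 and 0.41, 0.36 and 0.41), and Pola2, of the primase complex (0.35 and 0.37), were among the highest. Spc25, of the outer kinetochore, had 0.26 and 0.43, and Plk4, the kinase of centriole duplication, 0.33 and 0.28, all past the threshold. Between guides the S-phase targets gave 6 higher and 5 lower in the untreated cells, 2 and 4 without IFNγ, and 3 and 2 with IFNγ, and the G2/M targets 2 and 11, 0 and 5, and 2 and 2. For the S-phase targets these were 18.8% and 15.6%, 6.25% and 12.5%, and 9.38% and 6.25%, near the 15.1% and 16%, 7.89% and 9.33%, and 8.62% and 7.90% of all genes. For the G2/M targets the higher shares were 5%, 0% and 5%, and the lower shares 27.5%, 12.5% and 5%. Dut, the dUTPase, was lower in Sin3Bsg1 cells in all 3 (-0.20, -0.37 and -0.44). Spc25 (-0.45 and -0.28) and Depdc1a (-0.41 and -0.31) were lower without and with IFNγ, and Orc1, of the origin recognition complex, was higher (0.34 and 0.28). None of the 96 genes passed the interaction test (0 by edgeR and 0 by DESeq2), and 5 had an unadjusted p under 0.05.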

How the data were processed

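The RNA-seq data hold 16 libraries of KPC1199 cells in 6 groups. The authors deposited estimated counts per gene, not all of them whole, in a table for each experiment. The paper's methods name mm9, HISAT2 and featureCounts, whereas the submitters' processing notes name mm39, fastp, HISAT2, StringTie and DESeq2, and versions and the strand setting are not given in the sources used here. Overlapping and antisense genes may therefore share counts. Control columns are headed lacZ and were taken as sgCtrL by replicate number. Mean columns were not used. From the counts of the untreated experiment, 324 assembled loci (0.615 to 0.677% of counts) were left out.

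Counts were rounded to whole numbers and tested with edgeR 4.0.16 (R 4.3.3; TMM, filterByExpr, quasi-likelihood test, two-sided, Benjamini-Hochberg over all genes, threshold 0.05), with a fit per experiment and a mean per group. The 12 libraries of the IFNγ experiment share 1 estimate of the spread. Log2 CPM used a prior count of 2. TPM used the deposited gene lengths. DESeq2 1.42.0, other scalings and filters, a replicate block, the fold thresholds of the study (1.5 and 1.3, unadjusted p) and leaving out each library were alternatives, and the edgeR and DESeq2 steps were tested on simulated data. Promoters came from RefSeq (GRCm38.p6) and no coordinates were taken from the deposited files. In each comparison the 4 members with the largest change among those called and not overlapping, the 4 with the smallest adjusted p in the interaction, and E2f1, Foxm1, Mybl2, Mki67, Ccnb1 and Mcm2 were given in full. Of the other pathway genes, up to 4 a list and comparison with the largest change were eligible, and E2f4, Rbl1, Rbl2 and Lin9 always. The members and lists were chosen with earlier results of these data known.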

Additional observations from a re-analysis of the deposited data

Results flagged for a closer look

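Among 49 members, 4 had Sin3Bsg1 libraries entirely on one side of sgCtrL in the untreated experiment and entirely on the other side in the cells without IFNγ of the second experiment. For Mcm3 the log2 fold change was 0.07 (0.0735) in the untreated experiment and -0.07 (-0.0711) without IFNγ. For Mcm6 it was -0.06 (-0.0606) and 0.11 (0.1069). For Cdc20 it was -0.12 (-0.1152) and 0.08 (0.0803). For Kif11 it was 0.07 (0.0677) and -0.12 (-0.122). The difference was not tested, since the experiments have separate tables. Such opposite separation was seen in 8.16% of the members and in 6.07% of 13848 genes tested in both experiments, and separation in the same direction in 25 members (51.0%) and in 24.0% of those genes.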

How the results depend on the processing

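The 37 values counted here were those of Sin3b, of called members with the largest changes or a fixed name, and of the 4 interactions. They gave 477 values under alternatives, of which 455 kept their direction and side of the threshold. Another 22 kept the direction and missed the threshold, and 0 reversed. Many were picked for a large change, so these counts do not describe the other calls. Among those, Cenpa and Ccna2 without IFNγ and Tk1 with IFNγ passed in 4, 5 and 5 of 13 alternatives. Leaving out 1 library gave 0 to 2 members higher and 14 to 18 lower in the untreated comparison of guides (3645 to 4221 genes in all), 0 to 3 and 6 to 17 without IFNγ (1864 to 3529), 0 to 6 and 1 to 6 with IFNγ (1782 to 2945), 28 to 33 higher and 0 to 1 lower for IFNγ in sgCtrL (3545 to 4726), 28 to 40 higher and 0 lower in Sin3Bsg1 (3347 to 5248), and 1 to 33 genes for the interaction, with 0 members. The interaction count was 33 without sgCtrL with IFNγ replicate 1, against 17 with all libraries.

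With the study's fold of 1.5 or 1.3 and an unadjusted p under 0.05, members higher and lower numbered 0 and 0 in all 3 comparisons of guides, with 1334 and 1958 genes in all untreated, 1125 and 1649 without IFNγ, and 1037 and 1595 with IFNγ. For IFNγ these thresholds gave 1 and 8 members higher in sgCtrL (1663 and 2599 genes) and 2 and 9 in Sin3Bsg1 (1606 and 2433), and 262 and 363 genes for the interaction. With only the 6 libraries of a comparison of guides, 3 members were higher and 22 lower without IFNγ (3996 genes) and 0 and 2 with IFNγ (1500). The cause was not tested. DESeq2 gave 1 member higher without IFNγ, 1 lower with IFNγ in sgCtrL and 32 genes for the interaction. Total counts in place of TMM gave 2 higher without IFNγ and 1 lower in sgCtrL with IFNγ, a floor of 10 counts in every library 1 higher without IFNγ, and no filter 110 genes for the interaction. The share of higher genes among interaction calls was 70.6%, and 59.4% by DESeq2 and 56.3% with total counts.

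With total counts the mean log2 CPM of the S-phase members was 6.77 in sgCtrL and 6.71 in Sin3Bsg1 without IFNγ and 6.92 in Sin3Bsg1 with IFNγ. That of the G2/M members was 7.01 in untreated Sin3Bsg1, 7.09 and 7.001 without IFNγ (6.97 in Sin3Bsg1 with RLE factors), and 7.19 and 7.14 with IFNγ. The replicate block gave 2 higher and 21 lower members untreated, 0 and 13 without IFNγ, 3 and 4 with IFNγ, and 33 and 38 higher with IFNγ in sgCtrL and Sin3Bsg1. Among the members called between guides, the block ended 1 call, that on Tk1 with IFNγ (adjusted p = 0.0639). Same-numbered libraries of different groups in the IFNγ experiment correlated by -0.0288 to 0.119, 1 of 18 above 0.1. Other-numbered ones correlated by -0.133 to 0.0602, 0 of 36 above 0.1. In the untreated experiment the values were 0.0129 and -0.0129, which mirror each other with 2 libraries per group and cannot decide. The highest correlation was thus of a same-numbered pair, but all were small, and the numbers were not taken as pairs. The common biological coefficient of variation was 2.84% in the untreated and 6.78% in the IFNγ experiment. A log2 fold change of 0.07 (Mcm3) passed in the former, and 0.13 (Mcm2, adjusted p = 0.091 by edgeR) missed without IFNγ in the latter.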
